A study of Mus musculus with 7 samples.

Results

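The genes described here are 47 cell cycle and DNA replication genes of the mouse heart, measured in hearts in which deletion of Akt1 and Akt2 had been induced in cardiomyocytes and in control hearts. They were chosen by name for their known roles: 10 genes of the G1 phase and the entry into S phase, 2 inhibitors of cyclin-dependent kinases, 11 genes of DNA replication and nucleotide supply, and 24 genes of G2 and mitosis. All 47 had a probe on the arrays, among 45616 gene identifiers in all. A gene counted as measured when a probe for it was well above background, by the scanner software's own flag, on at least 3 of the 7 arrays, and the brightest such probe stood for the gene. This held for 43 of the 47 genes and for 23678 genes of the whole array.

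RNA came from the heart apex of male C57Bl/6 mice, with 1 mouse on each single-colour Agilent array. The 3 double knockout mice (DKO) carried loxP-flanked exons in both Akt1 and Akt2 and the MerCreMer recombinase, which acts in the nucleus once tamoxifen binds it. MerCreMer was driven by the promoter of alpha myosin heavy chain, so deletion was directed to cardiomyocytes, and the other cells of the DKO hearts were not targeted. The 4 control mice carried MerCreMer alone, heterozygous per the labels. Both groups shared the recombinase and the drug: every mouse was given 4-hydroxytamoxifen, 500 µg daily over 5 days, and hearts were taken 10 days after induction from mice 3 months old. The titles call all hearts untreated, while the protocol gives tamoxifen to all and nothing beyond it, and the design text states the number of knockout hearts both as 3 and as 4, of which 3 arrays are used here. The comparison asks how transcripts of the heart differ once Akt1 and Akt2, protein kinases downstream of insulin and growth factors, are deleted in its muscle cells.

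A dividing cell passes through G1, S phase, G2 and mitosis. D-type cyclins with Cdk4 or Cdk6, and then cyclin E with Cdk2, phosphorylate the retinoblastoma family of pocket proteins, which frees E2F factors to drive the genes of DNA synthesis, and CDK inhibitors hold these kinases back. The genes of G2 and mitosis are switched on later, by the MuvB complex with B-Myb and FoxM1, and their transcripts are scarce in resting cells. Most cardiomyocytes of the adult mouse have left the cell cycle, while endothelial cells, fibroblasts and blood-derived cells of the heart can still divide. Akt is known to act on this system largely through the proteins, among them the FoxO factors that drive Cdkn1b and Rbl2.

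Values are log2 signals, scaled so that every array had the same 75th percentile. Before scaling that percentile lay at 9.0, 9.06 and 9.27 on DKO replicates 1 to 3, against 9.05, 9.13, 9.10 and 9.36 on control replicates 1 to 4. The share of probes well above background ran from 50.9% to 55.7% and 0 spots were saturated. Precision is limited by the number of arrays and by the spread between hearts, which is given with each gene group. The brightest Akt2 probe averaged 11.64 ± 0.03 in DKO hearts and 13.69 ± 0.07 in control hearts (SD, n = 3 and 4; limma, adjusted p = 0.000203 over probes). The brighter Akt1 probe averaged 14.65 ± 0.04 in DKO hearts and 14.48 ± 0.06 in control hearts (SD, n = 3 and 4; limma, adjusted p = 0.199). The dimmer Akt1 probe averaged 8.74 ± 0.24 in DKO hearts and 8.27 ± 0.23 in control hearts (adjusted p = 0.139, limma). So neither Akt1 probe was lower in DKO, and whether the probes fall inside the deleted exons was not analysed. All 8 cardiomyocyte markers, among them Myh6 and Tnnt2, passed the filter for measured genes.

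None of the 43 measured genes passed the test of DKO against control hearts (two-sided limma fit, Benjamini-Hochberg adjustment over all 23678 genes, threshold 0.05), which 4.7% of all genes tested passed. At an unadjusted p below 0.05 there were 4 of the 43, or 9.30%, against 25.5% of all genes tested. These were Ccne1, Mcm2 and Rrm2, lower in DKO, and Cdkn1c, higher. In the same 4 genes the DKO and control values did not overlap, against 25.7% of all genes tested (12.5% lower and 13.2% higher in DKO), so both shares lay below the background. Of the 43 differences 12 were above 0 and 31 below, with a median of -0.55 on the log2 scale, against a median of -0.02 and 53.1% below 0 over all genes tested. The count and the median covered genes that passed the filter, of which 33 were well above background on all 7 arrays.

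**Figure D1:**
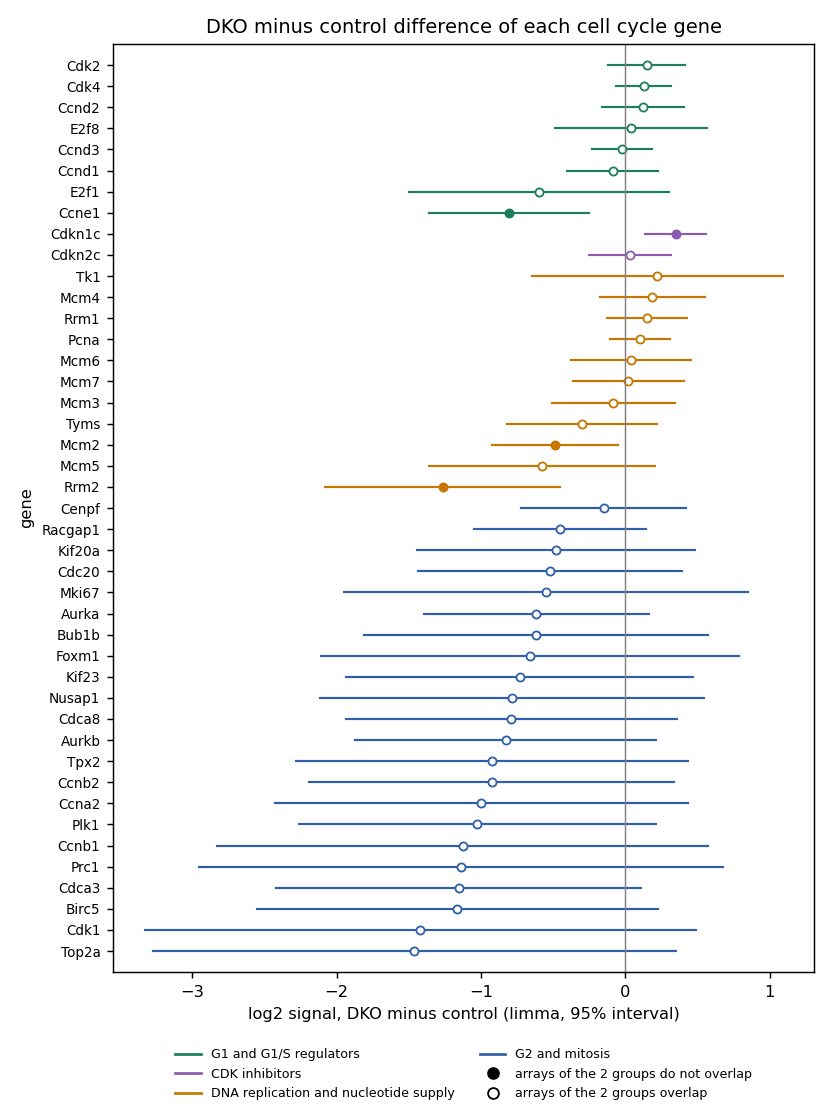
DKO minus control difference in log2 signal of the 43 measured genes, by role, with bars for the 95% confidence interval of the limma fit (n = 3 DKO and 4 control hearts). The intervals of Ccne1, Mcm2, Rrm2 and Cdkn1c do not cross 0, and those of the 22 genes of G2 and mitosis all do, with every difference below 0. Filled points mark genes whose DKO and control hearts do not overlap.

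Among the genes that start the cycle, cyclin E1 was lower in every DKO heart, and none passed the test. The 8 measured genes of G1 and the entry into S phase had a median difference of 0.01, with 4 above 0 and 4 below. Cyclin E1 (Ccne1), which activates Cdk2 at the end of G1, gave 6.23, 7.17 and 6.97 on DKO replicates 1 to 3, against 7.33, 7.65, 7.57 and 7.84 on control replicates 1 to 4. Every DKO heart lay below every control heart, the nearest being DKO replicate 2 and control replicate 1. DKO replicate 1 was lowest and control replicate 4 highest, as in most mitotic genes described below. The difference was -0.81 ± 0.23 (SE; 95% interval -1.36 to -0.25), which is 1.75-fold lower and missed the threshold (limma, adjusted p = 0.0968).

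The D-type cyclins, which answer growth factor signals, all had intervals that crossed 0. Ccnd1 differed by -0.09 (95% interval -0.40 to 0.23), Ccnd2 by 0.12 (-0.16 to 0.41) and Ccnd3 by -0.03 (-0.23 to 0.18). Their partner kinase Cdk4 gave 12.13, 12.20 and 12.31 in DKO hearts, against 11.98, 12.16, 12.08 and 12.12 in control hearts. The groups overlapped only in DKO replicate 1 and control replicate 2, and the difference was 0.13 ± 0.08 (SE; interval -0.06 to 0.32; limma, adjusted p = 0.359). Cdk2, the partner of cyclin E, gave 6.37, 6.53 and 6.55 in DKO hearts, against 6.22, 6.24, 6.28 and 6.59 in control hearts. Here control replicate 4 was above all DKO hearts and the other controls below them, with a difference of 0.15 ± 0.11 (SE; interval -0.12 to 0.42; limma, adjusted p = 0.447).

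E2f1, an activating E2F factor, gave 5.39, 5.88 and 6.49 in DKO hearts, against 6.07, 5.95, 6.79 and 7.25 in control hearts. DKO replicate 1 was lowest and control replicate 4 highest, and DKO replicate 3 lay above control replicates 1 and 2. Its difference of -0.60 ± 0.38 had an interval from -1.50 to 0.31 (limma, adjusted p = 0.367). The repressor E2f8 differed by 0.04 (interval -0.49 to 0.57). A further pair of genes was not measured: Cdk6, the other partner of D-type cyclins, was above background on 0 of 7 arrays, and cyclin E2 (Ccne2) on DKO replicate 1 alone. The Ccne2 spot read 6.51 there and 2.16 and 2.33 on the other DKO arrays, against 1.98 to 2.5 on the control arrays.

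The CDK inhibitor Cdkn1c, an imprinted gene that blocks the G1 kinases, was higher in all DKO hearts. It gave 12.59, 12.58 and 12.49 in DKO hearts, against 12.09, 12.37, 12.23 and 12.13 in control hearts. The groups did not overlap, and the difference of 0.35 ± 0.09 (SE; interval 0.14 to 0.56), or 1.27-fold higher, missed the threshold (limma, adjusted p = 0.0733). Cdkn2c, an inhibitor of Cdk4 and Cdk6, gave 9.63, 9.56 and 9.79 in DKO hearts, against 9.55, 9.41, 9.81 and 9.75 in control hearts. Its values overlapped throughout, with a difference of 0.03 ± 0.12 (interval -0.25 to 0.31; limma, adjusted p = 0.898). With trended variances or with array weights in the fit, Cdkn1c passed the threshold, at an adjusted p of 0.0296 and 0.0492 (limma).

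The genes of DNA replication were split. The small reductase subunit Rrm2 and the helicase subunit Mcm2 were lower in each DKO heart than in each control heart, while most of the others had differences close to 0, and none passed the test. All 11 were well above background on all 7 arrays, 6 with a difference above 0 and 5 below, and their median was 0.02. In 4 of the 11, Rrm2, Mcm2, Mcm5 and Tyms, DKO replicate 1 was lowest and control replicate 4 highest, against 2.44% of all genes tested. Most mitotic genes, described below, had the same hearts at these ends. Rrm2 encodes the subunit of ribonucleotide reductase whose supply rises in S phase and which sets the production of deoxynucleotides. It gave 6.36, 6.85 and 7.45 in DKO hearts, against 7.62, 7.86, 8.32 and 8.80 in control hearts. The spread within each group was wide, yet the highest DKO heart lay below the lowest control heart. The difference was -1.26 ± 0.35 (SE; interval -2.08 to -0.45), which is 2.4-fold lower (limma, adjusted p = 0.0861). It passed the threshold with trended variances and with array weights (adjusted p = 0.0422 and 0.0440). Rrm1, the large subunit of the same enzyme, differed by 0.15 (interval -0.12 to 0.43).

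The 6 MCM genes encode the ring that unwinds DNA at replication forks. Mcm2 gave 7.30, 7.5 and 7.34 in DKO hearts, against 7.64, 7.81, 7.65 and 8.37 in control hearts. The DKO hearts were all lower, and control replicate 4 stood above the other controls. The difference was -0.49 ± 0.19 (interval -0.92 to -0.05; limma, adjusted p = 0.161). Mcm5 gave 7.39, 7.62 and 8.08 in DKO hearts, against 7.51, 8.17, 8.49 and 8.92 in control hearts. The groups overlapped through control replicate 1, and the difference was -0.58 ± 0.33 (interval -1.36 to 0.21; limma, adjusted p = 0.319). Mcm3, Mcm4, Mcm6 and Mcm7 differed by -0.08, 0.19, 0.04 and 0.02, with intervals that crossed 0.

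Among the remaining genes of DNA synthesis, Pcna, the clamp that holds polymerase on DNA, differed by 0.10 (interval -0.10 to 0.31). Tyms, the enzyme that makes thymidylate, gave 7.45, 7.75 and 7.89 in DKO hearts, against 7.71, 7.79, 7.92 and 8.55 in control hearts. The groups overlapped except for DKO replicate 1 below and control replicates 3 and 4 above, and the difference was -0.30 ± 0.22 (interval -0.82 to 0.22; limma, adjusted p = 0.428). Tk1, thymidine kinase, differed by 0.22 (interval -0.65 to 1.09).

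Promoters are shown for a few replication and mitotic genes, because most mitotic genes had the same hearts at the ends of their order, described below. MuvB is known to bind the cell cycle homology region, with the core letters TTTGAA or TTTAAA, and NF-Y binds the CCAAT box nearby, while E2F sites of the form TTTGGCGC or TTTCGCGC are known from genes of S phase. RefSeq windows of GRCm38.p6, from 250 bases before a gene's start to 50 after it, were found for 37 of the 47 genes, in 41 windows. The 150 bases before the start are given below 5′ to 3′ on the gene's strand, with capitals for matches to any of these letters on either strand, so that ATTGG and TTCAAA are CCAAT and TTTGAA read from the other strand. Cdk1 lies on the minus strand at chr10:69352913-69353062, Top2a on the minus strand at chr11:99024190-99024339 and Cdc20 on the minus strand at chr4:118437344-118437493. Ccnb1 lies on the minus strand at chr13:100786487-100786636. Mcm6, for replication, lies on the minus strand at chr1:128359706-128359855, and Rrm2 on the plus strand at chr12:24708104-24708253.
Cdk1: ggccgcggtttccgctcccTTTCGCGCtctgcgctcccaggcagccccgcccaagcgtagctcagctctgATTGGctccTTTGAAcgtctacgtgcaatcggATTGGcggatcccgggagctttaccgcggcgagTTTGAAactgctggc
Top2a: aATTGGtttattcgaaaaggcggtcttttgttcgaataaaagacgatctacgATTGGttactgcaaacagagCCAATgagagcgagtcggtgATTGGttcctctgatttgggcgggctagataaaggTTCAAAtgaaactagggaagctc
Cdc20: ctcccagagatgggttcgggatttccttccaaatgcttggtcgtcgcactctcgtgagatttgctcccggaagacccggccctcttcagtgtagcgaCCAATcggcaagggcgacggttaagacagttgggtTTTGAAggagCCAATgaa
Ccnb1: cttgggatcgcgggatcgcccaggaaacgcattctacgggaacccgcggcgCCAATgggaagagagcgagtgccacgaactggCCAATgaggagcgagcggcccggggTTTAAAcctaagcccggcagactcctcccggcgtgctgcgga
Mcm6: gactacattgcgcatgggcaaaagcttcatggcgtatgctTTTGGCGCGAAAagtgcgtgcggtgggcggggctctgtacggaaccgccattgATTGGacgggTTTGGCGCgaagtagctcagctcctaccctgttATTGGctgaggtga
Rrm2: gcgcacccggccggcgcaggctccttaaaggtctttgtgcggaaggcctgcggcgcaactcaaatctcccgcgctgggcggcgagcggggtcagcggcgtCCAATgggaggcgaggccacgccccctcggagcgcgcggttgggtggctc

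The first 3 carry TTTGAA with CCAAT boxes near it, Ccnb1 carries TTTAAA, Mcm6 has E2F letters in 3 places, of which 2 overlap on opposite strands, and in the stretch of Rrm2 a CCAAT box is the only match. TTTGAA was present in 16 of 20 windows of G2 and mitosis genes (19 genes), against 17.8% of all 32544 windows. It was present in 1 of 11 windows of replication genes and 1 of 8 of G1/S genes. The other core, TTTAAA, did not set mitotic windows apart from replication windows. It was in 5 of 20 mitotic, 3 of 11 replication and 1 of 8 G1/S windows, against 13.1% of all. The Rrm2 window held TTTAAA just past the printed stretch. Each of the 16 mitotic windows with TTTGAA also held CCAAT, a combination found in 6.92% of all windows. CCAAT, with or without TTTGAA, was in 18 of 20 mitotic windows and 9 of 11 replication windows, against 37.4% of all. The E2F letters were in 4 of 11 replication windows and 1 of 20 mitotic windows, against 0.82% of all. A match of letters is a description of the window and not evidence of binding, which was not measured here.

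The genes of G2 and mitosis were lower on average in DKO hearts, and none passed the test. Of the 24 genes 22 were measured, and all 22 had a difference below 0, from -1.46 for Top2a to -0.15 for Cenpf, with a median of -0.81. The count of calls was 0 of 22, also at an unadjusted p below 0.05, and in 0 of 22 did the groups stand apart. They varied widely between hearts of 1 group. The median SD was 0.81 over the 3 DKO hearts and 0.82 over the 4 control hearts, against 0.13 and 0.16 over all genes tested, and the median SE of a difference was 0.54 against 0.12. In 21 of 22 genes, all but Cenpf, the 95% interval held both no difference and a 2-fold lower level in DKO, so the data do not show that the groups are alike.

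Topoisomerase II alpha (Top2a), which untangles replicated chromosomes, gave 4.64, 6.49 and 7.11 in DKO hearts, against 6.28, 6.91, 8.27 and 8.70 in control hearts. DKO replicate 1 was the lowest, control replicates 3 and 4 were the highest, and the other 4 hearts lay between. The difference was -1.46 ± 0.77 (interval -3.27 to 0.35; limma, adjusted p = 0.279). Survivin (Birc5), a subunit of the chromosomal passenger complex, gave 6.42, 7.5 and 8.50 in DKO hearts, against 7.82, 8.09, 9.05 and 9.58 in control hearts. The order was the same at both ends, with DKO replicate 3 above control replicates 1 and 2, and the difference was -1.16 ± 0.59 (interval -2.55 to 0.23; limma, adjusted p = 0.263).

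Polo-like kinase 1 (Plk1), which drives centrosome maturation and spindle assembly, gave 5.62, 6.70 and 7.14 in DKO hearts, against 6.83, 6.77, 8.03 and 8.41 in control hearts. DKO replicate 1 was again lowest and control replicates 3 and 4 highest, with the other 4 hearts between (difference -1.03 ± 0.52, interval -2.26 to 0.21; limma, adjusted p = 0.267). Cdca3, a cofactor for entry into mitosis, had the smallest p of the 22 genes. It gave 3.90, 5.38 and 5.50 in DKO hearts, against 5.42, 5.47, 6.39 and 7.06 in control hearts (difference -1.15 ± 0.54, interval -2.42 to 0.11; limma, adjusted p = 0.228). DKO replicate 1 was again the lowest, and not above background, and control replicates 3 and 4 were the highest. In all, 10 of the 22 genes, Top2a, Cdk1, Ccnb1 and Cdca3 among them, were above background on fewer than 7 arrays.

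The main mitotic kinase, Cdk1, and its cyclins, with the promoters of Cdk1 and Ccnb1 printed above, had the same hearts at the ends of their order. Cdk1 gave 2.66, 4.70 and 4.92 in DKO hearts, against 3.78, 5.62, 5.81 and 6.84 in control hearts, where the lowest value of each group was not above background. Cyclin B1 (Ccnb1) gave 3.04, 5.14 and 5.47 in DKO hearts, against 4.67, 5.06, 6.28 and 6.71 in control hearts. Ccna2, Ccnb1 and Ccnb2 differed by -1.0, -1.13 and -0.93, each with an interval across 0. The proliferation marker Mki67, well above background on all 7 arrays, gave 7.63, 8.55 and 9.10 in DKO hearts, against 7.76, 8.54, 9.55 and 10.05 in control hearts. DKO replicate 1 and control replicate 1 were close together at the low end, and the difference of -0.55 had an interval from -1.95 to 0.85.

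The other genes of this group were Foxm1, the transcription factor of G2 genes (-0.66), the Aurora kinases Aurka and Aurkb (-0.62 and -0.83), the passenger subunit Cdca8 (-0.79), the spindle checkpoint kinase Bub1b (-0.62), the activator of the anaphase-promoting complex Cdc20 (-0.52), the kinesins Kif20a and Kif23 (-0.48 and -0.73), the spindle proteins Prc1, Nusap1 and Tpx2 (-1.14, -0.79 and -0.93) and the cytokinesis regulator Racgap1 (-0.45). Bub1b was above background on only 1 DKO and 2 control arrays, so its difference rests mostly on background readings. Bub1 and the spindle kinesin Kif11 were not measured, since each was above background on control replicate 4 alone, at 5.57 and 5.42.

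**Figure D2:**
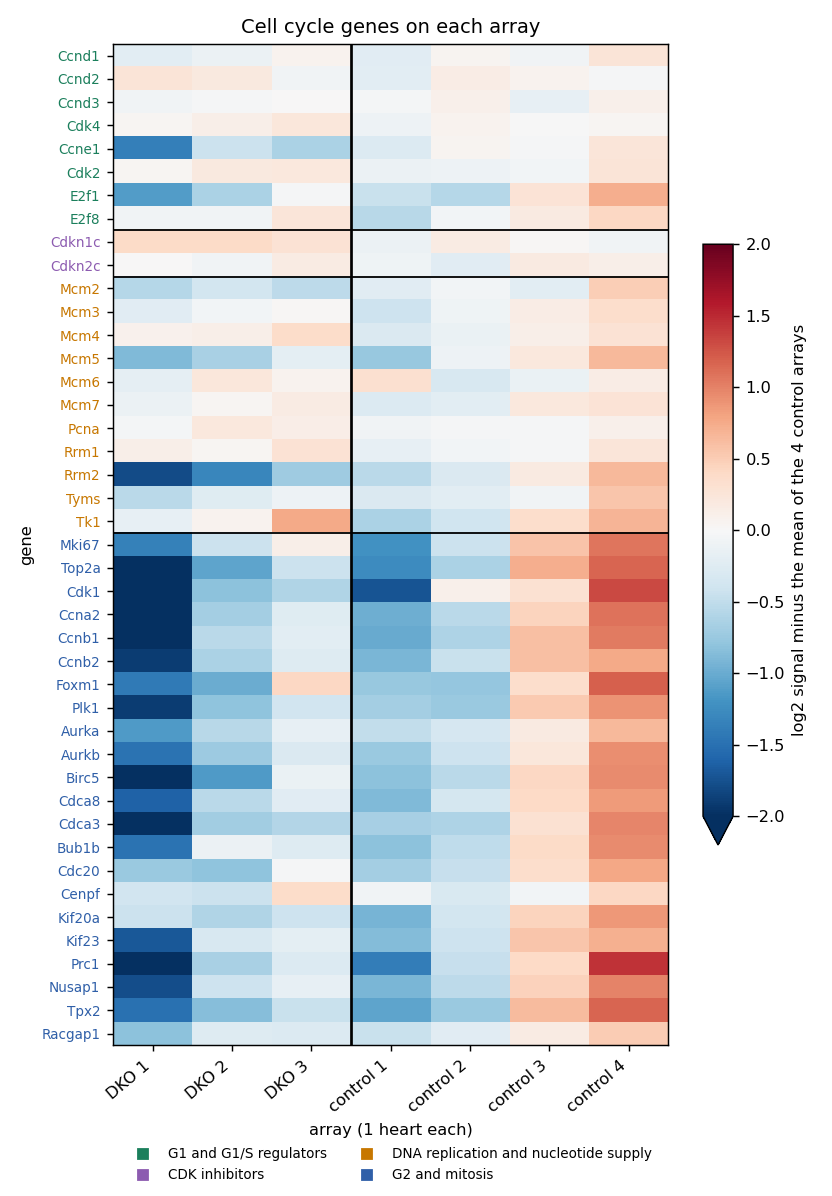
Log2 signal minus the mean of the 4 control hearts, as colour, for each of the 43 measured genes (rows, by role) on each array (columns, 3 DKO then 4 control). All 22 genes of G2 and mitosis are highest on control replicate 4, and 19 of them, all but Cdc20, Cenpf and Kif20a, are lowest on DKO replicate 1.

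The mitotic genes largely shared the hearts at the ends of their order, while the middle varied. Control replicate 4 was the highest array in 22 of 22 genes, which was so in 10.2% of all genes tested, and DKO replicate 1 was the lowest in 19 of 22, against 12.6% of all genes tested. Both held together in 86.4% of the 22 genes and in 2.44% of all genes tested. In the other 3, Cdc20 and Cenpf were lowest on DKO replicate 2 and Kif20a on control replicate 1. Control replicates 3 and 4 were above the remaining 5 arrays in 20 of 22 genes, against 4.73% of all genes tested. Control replicate 1 lay below DKO replicate 3 in 22 of 22 genes, but below DKO replicate 2 in 15 of 22. Control replicate 2 lay below DKO replicate 3 in 19 of 22. These genes were read on the same 7 hearts, so their number adds no hearts to the comparison.

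As 1 value per array, the median over the 22 genes of the signal minus the control mean was -1.65, -0.64 and -0.25 on DKO replicates 1 to 3, against -0.88, -0.46, 0.41 and 0.95 on control replicates 1 to 4. Control replicates 1 and 4 lay further apart than the median difference between the groups. On DKO replicates 1 to 3, 12, 22 and 21 of the 24 genes were above background, against 16, 21, 22 and 24 on control replicates 1 to 4. The same measure for the 11 replication genes ran from -0.18 to 0.06 in DKO hearts, against -0.29 to 0.35 in control hearts. For the 8 genes of G1 and S phase entry it ran from -0.06 to 0.04 in DKO hearts, against -0.22 to 0.25 in control hearts. Control replicate 4 was the highest array there too, in 6 of 11 and 6 of 8 genes, against 10.2% of all genes tested. The low end differed, as control replicate 1 was the lowest array in 6 of 11 and 5 of 8 genes, against 20.7% of all genes tested. DKO replicate 1 was the lowest in 4 of 11 and 2 of 8.

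**Figure D3:**
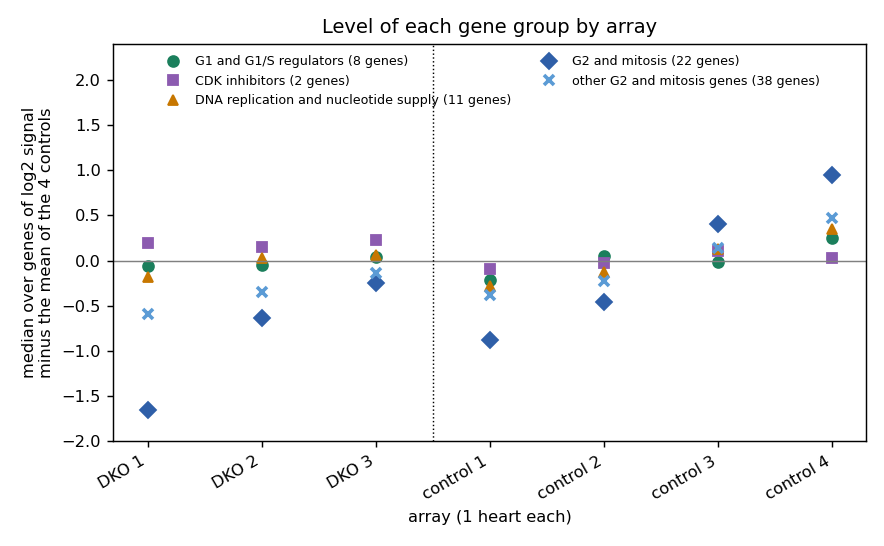
Median over the genes of each role of the log2 signal minus the mean of the 4 control hearts, for each array, 3 DKO then 4 control. The mitotic value runs from -1.65 on DKO replicate 1 to 0.95 on control replicate 4 with the groups overlapping, and the G1/S value stays between -0.22 and 0.25.

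The size of the mitotic difference depended on single hearts. The median was -0.43 without DKO replicate 1 and -0.51 without control replicate 4, and between -1.13 and -0.69 without any other heart. Arrays lay in 2 rows of the slide, with DKO replicate 3 and control replicates 1, 3 and 4 in row 1 and the others in row 2. The median was -0.41 within row 1, -0.60 within row 2 and -0.54 with row as a block. For the 12 genes well above background on all 7 arrays the median was -0.70, all 12 below 0. With normexp background correction, which compresses dim signals, it was -0.41.

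Array brightness ran partly with the mitotic order: DKO replicate 1 had the lowest 75th percentile and the smallest share of probes above background, at 9.0 and 50.9%, and control replicate 4 the highest, at 9.36 and 55.7%. After quantile normalization, which gives all arrays 1 distribution, the mitotic values were -1.55, -0.56 and -0.13 in DKO hearts, against -1.02, -0.40, 0.42 and 0.98 in control hearts, with the same arrays at the ends. The median difference was then -0.69.

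Markers of cells that can divide in the heart were read beside these genes, with 0 of 8 endothelial, 0 of 8 fibroblast, 0 of 8 macrophage, 0 of 6 lymphocyte and 0 of 5 erythroid markers past the threshold, where 4.7% of all genes tested were. Of the mural markers, 1 of 7, Myh11, passed it, at 0.63 higher in DKO. The mural list was split, with 4 of 7 above 0 (median 0.21) and 3 below, among them Acta2 at -0.41. The difference was above 0 in 8 of 8 endothelial markers (median 0.23), with 4 of 8 not overlapping between groups, against 25.7% of all genes tested. It was above 0 in 7 of 8 fibroblast markers (median 0.17), with 2 of 8 not overlapping, and in 5 of 8 macrophage markers (median 0.09), with 0 of 8 not overlapping. The summed signal of the 8 macrophage markers was 14035, 19200 and 16909 in DKO hearts, against 14754, 16365, 16067 and 16262 in control hearts. DKO replicate 1 and control replicate 1, both low in mitotic genes, had the lowest sums. The rest did not follow the mitotic order. DKO replicate 2 had the highest sum with a mitotic value of -0.64, and control replicate 4, the highest in mitotic value, had a sum of 16262. The endothelial sum was 88373 to 95420 in DKO hearts, against 67856 to 86409 in control hearts, and the fibroblast sum 113102 to 133199, against 108196 to 114194. The macrophage, endothelial and fibroblast sums are each weighted to 1 bright marker, Csf1r, Fabp4 and Dcn in turn. Their log2 signals averaged 13.11, 15.76 and 16.28 in DKO hearts, against at most 11.16, 13.30 and 14.37 for the other markers of each list. The lymphocyte sum was 776 to 1041 in DKO hearts, against 658 to 839 in control hearts, with Cd79a and Cd8a above background on 0 of 7 arrays. This sum is weighted to Cd3e, at a mean log2 signal of 8.97 in DKO hearts, against at most 7.51 for the other lymphocyte markers. The difference was above 0 in 5 of 6 lymphocyte markers (median 0.37), with 0 of 6 not overlapping. One of the 5, Ms4a1, was above background on 3 DKO and 0 control arrays. It passed the filter through the DKO hearts alone, so its direction is tied to the filter. For the 3 lymphocyte markers above background on all 7 arrays the median was 0.24, with 3 of 3 above 0. Over the 6 lymphocyte markers, DKO replicate 1 was the highest array in 5 and control replicate 4 the lowest in 5, Ms4a1 included both times. This was opposite to the ends of the mitotic order. The erythroid sum, which is mostly that of 1 bright probe, was 218708 to 301936 in DKO hearts, against 229810 to 262476 in control hearts, while 3 of the 5 erythroid markers had a difference below 0 (median -0.26). The part of these cells, of array brightness and of slide row in the mitotic values was not tested. In whole tissue, fewer dividing cells and less of these transcripts per cell cannot be told apart.

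Other genes of the same pathways were read for the regulators that the 47 genes leave out. Of 34 measured further CDK inhibitors, pocket proteins and G1/S regulators (35 listed), 5 passed the threshold, 4 higher and 1 lower in DKO, where 2.41% and 2.29% of all genes tested did. The list's median difference was -0.03. Of 45 measured further replication genes (47 listed) 1 passed, higher in DKO, with a median of -0.08. Of 38 measured further genes of G2 and mitosis (50 listed) 0 passed, with 31 below 0 and a median of -0.39. At an unadjusted p below 0.05 there were 10 of the 38, or 26.3%, close to the 25.5% of all genes tested.

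Cdkn1b, a CDK inhibitor and FoxO target, rose in DKO hearts. It gave 11.59, 11.53 and 11.67 in DKO hearts, against 11.05, 11.20, 11.26 and 11.14 in control hearts. The groups were well apart, and the difference was 0.43 ± 0.08 or 1.35-fold (SE, n = 3 and 4; limma, adjusted p = 0.0343). Rbl2, the pocket protein of resting cells, rose too, with 8.84, 8.79 and 8.99 in DKO hearts, against 8.28, 8.52, 8.26 and 8.18 in control hearts. Every DKO heart was above control replicate 2, the highest control, and the difference was 0.57 ± 0.10 or 1.48-fold (limma, adjusted p = 0.0333). Ccng2, an unusual cyclin linked to cell cycle arrest, gave 9.30, 9.38 and 9.57 in DKO hearts, against 8.93, 8.91, 8.98 and 8.97 in control hearts. Its controls lay within a narrow band below all DKO hearts, and it rose by 0.47 ± 0.09 or 1.39-fold (limma, adjusted p = 0.0322).

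Myc, a transcription factor that drives growth and S phase genes, rose most of these. It gave 7.0, 7.43 and 7.57 in DKO hearts, against 5.59, 6.18, 6.17 and 6.09 in control hearts. All DKO hearts were above all controls, among which control replicate 1 was lowest, and the difference was 1.33 ± 0.20 or 2.51-fold (limma, adjusted p = 0.0192). Fbxw7, the ubiquitin ligase subunit that marks Myc and cyclin E proteins for breakdown, fell. It gave 11.26, 11.34 and 11.16 in DKO hearts, against 11.98, 11.92, 11.63 and 12.04 in control hearts. The DKO hearts were again apart from the controls, and the difference was -0.64 ± 0.12, or 1.56-fold lower (limma, adjusted p = 0.0322).

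Rpa2, a subunit of the protein that coats single-stranded DNA, was the replication gene that rose. It gave 8.50, 8.51 and 8.62 in DKO hearts, against 8.0, 8.01, 7.96 and 8.23 in control hearts. The groups did not overlap, and the difference was 0.49 ± 0.09 or 1.41-fold (limma, adjusted p = 0.0322). The replication gene with the next smallest p was Pold2, a subunit of polymerase delta (0.43 ± 0.10; limma, adjusted p = 0.0640). Pttg1, or securin, which holds separase inactive until anaphase, gave 14.98, 14.87 and 14.98 in DKO hearts, against 14.72, 14.63, 14.65 and 14.74 in control hearts. It ran opposite to the 22 mitotic genes, with every DKO heart above every control heart (0.26 ± 0.07; limma, adjusted p = 0.0883). Cdkn3 and Bub3 of the same list did so too, with differences of 0.85 and 0.22. Of the 38 further genes of G2 and mitosis, 3 stood apart higher and 3 lower in DKO. Together these were 15.8%, against 25.7% of all genes tested. Cdc25c, the phosphatase that activates Cdk1, was above background on 1 DKO and 3 control arrays, so most of its DKO values lie at the background and no difference is given.

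**Figure D4:**
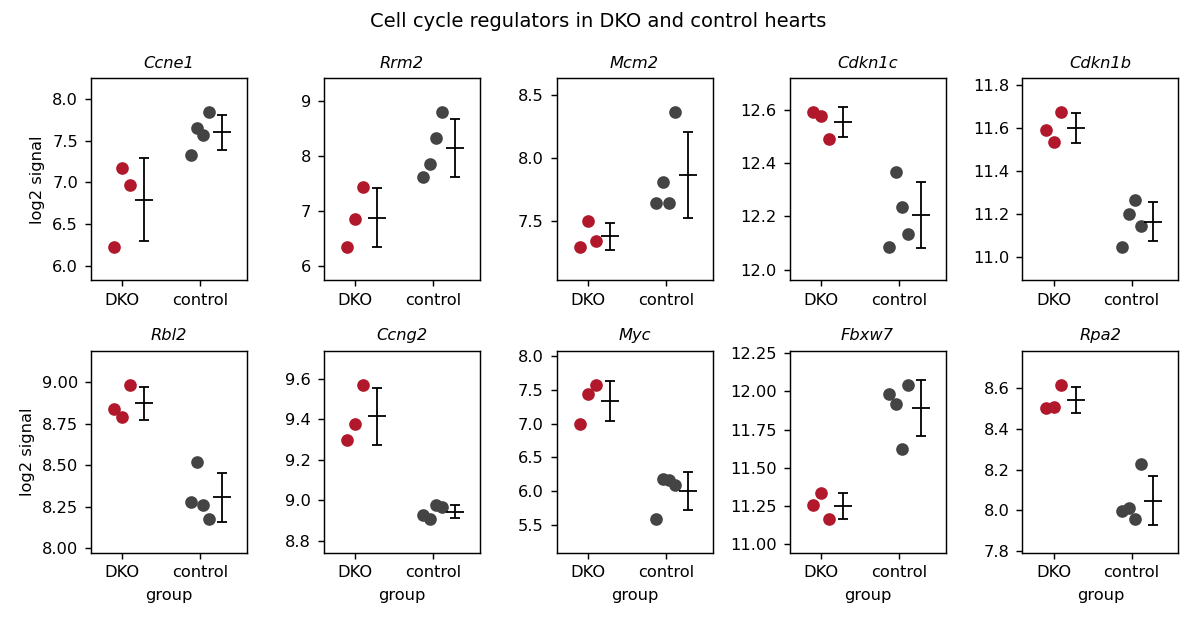
Log2 signal of 10 genes in each heart (points), DKO left and control right in each panel, with a bar and whiskers for the group mean and SD (n = 3 and 4). In all 10 panels the DKO points lie apart from the control points, above them for Cdkn1c, Cdkn1b, Rbl2, Ccng2, Myc and Rpa2 and below them for Ccne1, Rrm2, Mcm2 and Fbxw7, and 6 of the genes passed the threshold. The 10 genes are the 4 of the 43 whose groups did not overlap and the 6 called pathway genes. Their separation therefore follows from the choice, and 25.7% of all genes tested showed it.

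These 6 calls were close to the threshold. Leaving out 1 heart at a time, Cdkn1b and Ccng2 passed in 0 of 7 fits, with an adjusted p of up to 0.107 and 0.0901 (limma). Rbl2 passed only without control replicate 2, Fbxw7 only without control replicate 3 and Rpa2 only without control replicate 4, with an adjusted p of up to 0.102, 0.102 and 0.101. Myc passed in 4 of 7 fits and was lost without DKO replicate 2, DKO replicate 3 or control replicate 4, with an adjusted p of up to 0.0710. With no filter on dim probes, or with slide row as a block, 0 of the 6 passed. The fits within a row have 1 heart in 1 arm and called at most 4 genes over the whole array, so they could hardly pass any gene, and each of the 6 kept its direction there.

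Genes with several probes gave a check within the arrays. The 43 genes had 58 probes above background on at least 3 arrays, and 0 of the 58 passed the threshold in the fit over all probes (limma). Of 12 genes with more than 1 such probe, 10 had probes of 1 sign. In Cdk4 and Mcm3, both near 0, the probes differed in sign.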

How the data were processed

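RNA of heart apex from 7 mice, 3 DKO and 4 control, was read on 1-colour Agilent arrays (design 074809, positions on mm9), with 100 ng of RNA labelled per the labels' protocols. The authors quantified the scans with Feature Extraction 12.0.3.1 and protocol GE1_1200_Jun14, and the deposited files hold the processed signal as a linear intensity after background subtraction, with other flags for background and outliers, per the file headers. The authors' deposited table holds log2 values. They matched quantile-normalized scanner values centred on each probe's median (r at least 0.9994, every column median 0), with the software not given in the sources used.

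Control spots and outlier spots were left out, log2 intensity was scaled to each array's 75th percentile (mean 9.14 added back), and replicate spots were averaged per probe. Names came by accession through a RefSeq table of GRCm38.p6, which matched 32994 of 56605 probes. A gene was its brightest probe well above background on at least 3 arrays, which favours genes high in the larger control group. The test was limma 3.58.1 (R 4.3.3; lmFit, eBayes; two-sided; Benjamini-Hochberg over 23678 genes; threshold 0.05), checked on simulated data. Groups came from the labels, 1 animal per array.

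The genes and the lists were chosen with earlier results of these data known. Array values are given for the 4 genes of each role with the smallest p, for called genes of the pathway lists, and for a few others (Cdk1, Ccnb1, Mki67, Pttg1) chosen after their values were seen. The 22 alternatives were quantile and median scaling, normexp (offset 50, on the median spot signal, as no mean signal column is used here) with either scaling, the authors' values, no filter, a filter on all 7 arrays, probe means per gene, array weights, trended or robust variances, a block for slide row or replicate number, each slide row alone, and each array left out. Motifs were searched as exact letters on both strands.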

Additional observations from a re-analysis of the deposited data

Results flagged for a closer look

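Of 56 sets of 4 control values examined, those of the 43 measured genes, the 6 called pathway genes and 7 gene groups, 1 had a heart far from the rest. Myc read 5.59 in control replicate 1, against 6.09 to 6.18 in the other 3 controls, a gap of 0.842 of the whole range, above the critical value of Dixon's test at the 95% level. Chance places about 1 in 20 such sets past that value. Without this heart the DKO minus control difference of Myc was 1.19 (limma, adjusted p = 0.0259).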

How the results depend on the processing

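Of the 22 mitotic genes 10 were above background on fewer than 7 arrays, so their lowest values are background readings. Over the 22 alternatives 32 of the 43 genes kept the sign of their difference, among them 20 of the 22 mitotic genes (not Cenpf and Foxm1), and 33 of 936 values turned sign, all of uncalled genes. The cause of the changes listed here was not tested.

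The number of genes called over the whole array, 1114, became 549 with normexp and the 75th percentile, 655 with normexp and quantile scaling, 121 with no filter, 2007 with trended variances, 1680 with array weights, 288 with slide row as a block, 4 within row 1, 0 within row 2 and 160 to 1127 with 1 array left out. Of the 43 genes 0 were called in every alternative except trended variances and array weights, where 2 were, 1 CDK inhibitor (Cdkn1c) and 1 replication gene (Rrm2). Among the further CDK inhibitors, pocket proteins and G1/S regulators the 5 calls became 3 with normexp and the 75th percentile, 0 with no filter, 0 with slide row as a block, 0 within row 1, 0 within row 2 and 0 to 2 with 1 array left out. Among the further replication genes the 1 call became 2 with the filter on all 7 arrays, 2 with trended variances, 2 with array weights, 0 with no filter, 0 with slide row as a block, 0 within row 1, 0 within row 2 and 0 to 1 with 1 array left out. Among the further mitotic genes 1 was called with trended variances, 1 with array weights and 0 to 1 with 1 array left out (1 without control replicate 2).

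With the replicate number as a replicate block, 1 gene was called over the whole array, 0 among the further G1/S regulators and 0 among the further replication genes, and Ccnd3 and Mcm3 turned to 0.0094 and 0.032. Deviations of same-numbered hearts correlated at 0.129, 0.0069 and 0.0325. Differently numbered hearts were not set beside them, so this check cannot decide whether the numbers pair the samples.

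The other turned log2 differences were these, with Cenpf the furthest from 0. Mcm7 was -0.0047 with quantile scaling, -0.010 with normexp and the 75th percentile, -0.033 with normexp and quantile scaling and -0.087 with array weights. Cdkn2c was -0.0028 with normexp and quantile scaling and -0.019 with array weights, E2f8 -0.13 with array weights and -0.012 within row 2, and Tk1 -0.049 with array weights. Cenpf was 0.089 with slide row as a block. Within row 1 Ccnd1 was 0.080, Ccnd2 -0.027, Ccnd3 0.043, Mcm3 0.0012, Mcm6 -0.044, Foxm1 0.15 and Cenpf 0.27. With 1 array left out, Mcm7 ran from -0.070 to 0.11, Cdkn2c from -0.044 to 0.091, E2f8 from -0.14 to 0.18, Tk1 from -0.049 to 0.45, Ccnd3 from -0.078 to 0.0094, Mcm3 from -0.22 to 0.032 and Mcm6 from -0.069 to 0.15.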
